A study of Mus musculus with 27 samples.

Results

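Anti-HuR immunoprecipitates of cells given LPS with TM7nox were compared with those of cells given LPS alone. The comparison uses 8 of the 27 libraries, chosen by treatment and antibody: 4 of RIP from LPS+TM7nox and 4 of RIP from LPS, replicates 1 to 4 of each. RAW264.7 is a mouse macrophage cell line, so all libraries come from 1 line. LPS, a lipopolysaccharide of bacterial cell walls, was given at 1 µg/ml for 6 h in both groups. The LPS+TM7nox cells also received TM7nox, one of the tanshinone mimics, at 10 µM, and the LPS cells received DMSO, the vehicle. RIP (ribonucleoprotein immunoprecipitation) recovers the RNA held on antibody-coated beads, and the reads of each gene in it were counted. Cells given DMSO for 6 h without LPS or TM7nox (4 libraries of RIP and 4 of total RNA) entered the fits as a group of their own, and their levels are given for a few genes. Total RNA from the LPS and LPS+TM7nox treatments (4 libraries each) and RNA on control IgG beads (1 library each, both of replicate 3) are given beside the RIP values. The labels do not say that replicates came from separate cultures, so p-values measure the spread between these samples.

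HuR, encoded by Elavl1, is an RNA-binding protein that attaches to U-rich and AU-rich stretches, mostly in the 3′ untranslated regions (UTRs) of mRNAs. It is known for keeping short-lived mRNAs of cytokines, growth factors and cell-cycle genes from decay and for acting on their translation. Other proteins that bind the same kind of sequence, such as those of the Zfp36 family, direct the mRNA to decay instead. The amount of an mRNA in a RIP depends both on how much of it the cell holds and on how much of that is bound, so a RIP value alone does not separate these.

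The sequences below show an AU-rich element of the kind HuR binds, as it stands in mRNAs that the results describe. For mRNAs that rose, fell or were not called in the RIP, each is the 30 bases around the first TATTTAT in the longest annotated 3′ UTR, 5′ to 3′ on the gene's strand, with T for U and the motif in capitals (GRCm39, GENCODE M39). Those of mRNAs that were higher under TM7nox were Tnf (chr17:35418683-35418712, minus strand), Cxcl2 (chr5:91053175-91053204, plus), Vegfa (chr17:46328520-46328549, minus), Tlr4 (chr4:66849390-66849419, plus), Zc3h12c (chr9:52026161-52026190, minus) and Rora (chr9:69287041-69287070, plus).
Tnf: cagcccccctcTATTTATatttgcacttat
Cxcl2: gagagttcactTATTTATttatctatgtat
Vegfa: ttaatttcaacTATTTATgagatgtatctc
Tlr4: aattagtttttTATTTATttatttttggtc
Zc3h12c: gctataatcatTATTTATaggaacaaagat
Rora: acgttgggaggTATTTATgctgctgtttac
Those of mRNAs that were lower were Il1b (chr2:129206727-129206756, minus), Il1a (chr2:129142028-129142057, minus), Il10 (chr1:130952122-130952151, plus), Nos2 (chr11:78850922-78850951, plus), Socs3 (chr11:117856964-117856993, minus) and Ccl22 (chr8:95477447-95477476, plus).
Il1b: aaccacttaccTATTTATttatgtatttat
Il1a: ttttatctatgTATTTATaaatatatttat
Il10: tctctccgaaaTATTTATtacctctgatac
Nos2: ctatgtacagaTATTTATacttcatattta
Socs3: ctttgcacataTATTTATatttatactcag
Ccl22: agctatagttaTATTTATataggaaagagg
The mRNA of HuR itself, which was not called, holds 9 copies of the motif in a UTR of 7329 bases (chr8:4335787-4335816, minus).
Elavl1: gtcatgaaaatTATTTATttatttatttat
The motif was thus present on both sides of the comparison: the Tnf UTR holds 8 copies, that of Cxcl2 7, those of Il10 and Il1a 4 each, and that of Il1b 3. Of all 10789 coding genes tested that have a 3′ UTR of at least 50 bases, 36.8% hold at least 1 copy. The UTR of Hmox1, one of the RNAs that rose most, is 570 bases long and holds no copy, and neither does that of Trib3. A match of letters is a description and not a binding site.

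The RIP libraries held 26151490 to 34866019 counts in LPS and 19816312 to 41449233 in LPS+TM7nox, and the IgG libraries 24513902 and 8873091. The total RNA libraries held 17361022 to 28285856 counts in LPS and 16258731 to 26582325 in LPS+TM7nox. In DMSO they held 2728534 (replicate 1) to 27543656 (replicate 2). CPM below are counts scaled by library size, on 1 scale over the 27 libraries. The mitochondrially encoded share of counts was 1.86% in LPS replicate 4 and 0.559% to 0.630% in the other LPS libraries, and 1.72% in LPS+TM7nox replicate 1. All 10 macrophage markers were detected, with a summed level of 2325 to 3310 CPM in LPS and 949 to 2105 CPM in LPS+TM7nox, and 6 of the 10 were called lower (Fcgr1, Lyz2, Tyrobp, Itgam, Spi1 and Cd14) with none higher. In total RNA 4 of the 10 were called lower and none higher, with a median log2 fold change of -0.41 against -0.96 in RIP. Lyz2 was not called without LPS+TM7nox replicate 2, 3 or 4 or LPS replicate 1, 2 or 4 (FDR 0.0594 to 0.153), nor Cd14 without LPS replicate 4 (0.0529). Markers of other cells summed to at most 0.280 CPM for fibroblasts, 0.212 for epithelial cells, 1.30 for neutrophils, 8.63 for T cells and 32.5 for B cells. In bulk samples of 1 line, fewer cells with a marker, less RNA per cell and, in RIP, less recovery cannot be told apart.

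Of 13614 genes tested, 2212 (16.2%) were called at an adjusted p (FDR) under 0.05, 1176 of them (8.64%) higher and 1036 (7.61%) lower with TM7nox. The calls were spread unevenly over the range of recovery. Among genes with a mean of at least 100 CPM, 349 were called higher and 96 lower of 1937, while between 1 and 10 CPM the numbers were 283 and 356 of 4501. Log2 fold changes of at least 2 were reached by 103 higher and 85 lower genes, and of at least 3 by 24 and 16. The libraries of the groups did not overlap for 1015 genes called higher and 821 called lower, against 18.7% of all genes tested. In 1170 of the 1176 and 1028 of the 1036, all 4 same-numbered pairs moved the same way. The calls were made from these same libraries, so the counts without overlap and of pairs are a description and no separate support. With the replicate number as a block 4577 genes were called, 2256 higher and 2321 lower. Without LPS replicate 1 the lower calls numbered 659.

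**Figure D1:**
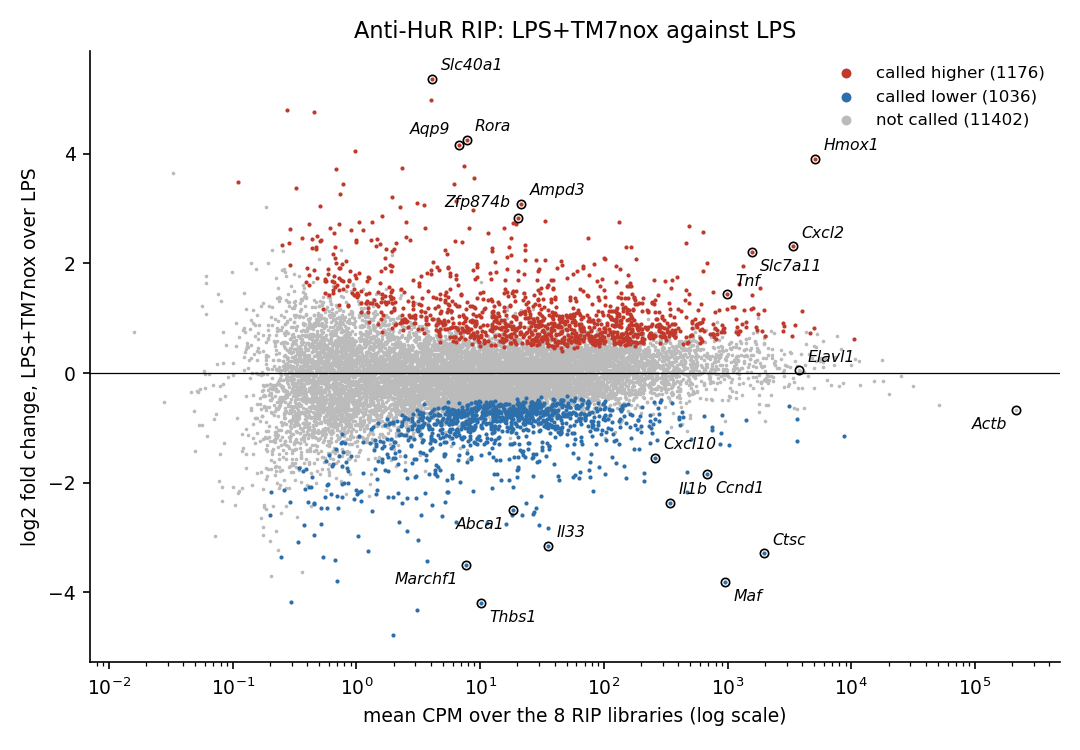
Each point is 1 of 13614 genes, with the mean CPM over the 8 RIP libraries (log scale) against its log2 fold change in RIP, LPS+TM7nox over LPS. The 1176 genes called higher are red, the 1036 called lower blue and the rest grey. From 100 CPM upwards the 349 higher calls, such as Hmox1 and Cxcl2, outnumber the 96 lower ones, and Actb stands alone at the right.

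The largest fold change of all genes tested was an increase in iron handling. Slc40a1 encodes ferroportin, the exporter of iron from cells (chr1:45947211-45965683, minus strand, overlapped by Gm69542 on the other). Its RIP level was 0.139, 0.210, 0.155 and 0.232 CPM in the LPS libraries and 7.64, 9.76, 7.63 and 7.11 CPM in the LPS+TM7nox libraries. Every treated library lay far above every LPS library, and the log2 fold change was 5.38 (SE 0.338, FDR 4.05e-07). The IgG libraries held 0.703 CPM in LPS, above all 4 RIP libraries, and 6.62 CPM in LPS+TM7nox, near the RIP mean of 8.04 CPM, so its difference was also present on control beads. Hmox1 encodes heme oxygenase, which breaks heme down (chr8:75820241-75827217). It stood at 614, 531, 876 and 467 CPM in LPS and at 9069, 14130, 9215 and 6184 CPM with TM7nox. Its groups did not overlap, and the log2 fold change was 3.91 (SE 0.295, FDR 7.88e-07), while the IgG libraries held 125 and 908 CPM. Slc48a1, a heme transporter, rose by a log2 of 1.74 (SE 0.250, FDR 0.000278). Mt1, a metallothionein that binds zinc, went the other way, from 123, 123, 132 and 154 CPM to 47.3, 31.4, 25.7 and 18.8 CPM (log2 fold change -2.15, SE 0.230, FDR 2.23e-05). Of the 20 genes of heme, iron and metal handling, 7 were called higher and 3 lower, with a median of 0.22 against -0.03 over all genes, and with the block 7 and 5. Without LPS+TM7nox replicate 1 the median was 0.045. In total RNA 8 were called higher and 3 lower.

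Targets of Nrf2, the transcription factor of the oxidative stress response, were mostly higher: 16 of 25 were called higher and 0 lower, 5 had a negative fold change, and the median log2 fold change was 1.14. In total RNA 18 were called higher and 0 lower, with a median of 1.13. Gclm encodes a subunit of the enzyme that starts glutathione synthesis. Its level was 38.1, 35.1, 30.0 and 28.7 CPM in LPS and 283, 326, 175 and 140 CPM with TM7nox, with no overlap (log2 fold change 2.76, SE 0.250, FDR 4.42e-06). Slc7a11, the cystine importer that feeds the same pathway, was far more abundant, at 597, 693, 511 and 369 CPM and then 2621, 2968, 2557 and 2238 CPM (2.21, SE 0.239, FDR 2.31e-05). Txnrd1, a thioredoxin reductase, rose from 861, 886, 898 and 699 CPM to 2007, 2905, 1971 and 2384 CPM, a log2 fold change of 1.43. The mRNA of Nrf2 itself (Nfe2l2) had a log2 fold change of -0.46 (FDR 0.101) and was not called. With the block 17 genes of the list were called higher and 1 lower, and without LPS+TM7nox replicate 3 the numbers were 16 and 1.

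The Atf4 response restores amino acid supply and regulates translation under stress. Of its 33 genes tested, 15 were called higher, 0 lower and 18 neither, and 32 had a positive fold change (median 0.99). The block raised the calls to 28 higher and 1 lower. Trib3, a pseudokinase induced by Atf4, was at 3.56, 6.99, 9.94 and 13 CPM in LPS and 69.7, 40.3, 69.3 and 56.2 CPM with TM7nox (log2 fold change 2.78, SE 0.340, FDR 7.16e-05). Slc3a2, the heavy chain shared by several amino acid transporters, rose from 66.7, 55.6, 61.2 and 88.3 CPM to 232, 226, 284 and 230 CPM (1.79, SE 0.178, FDR 1.15e-05). Slc7a1, a transporter of cationic amino acids, rose by 1.30. On IgG beads Trib3 was at 14.5 CPM in LPS and 85.7 CPM in LPS+TM7nox, above its RIP means of 8.37 and 58.9 CPM. Slc3a2 (154 and 709 CPM on IgG) and Slc7a1 (163 and 366 CPM) were likewise higher on IgG than in their RIP means. The RIP means of Slc7a11, of the same list, lay above its IgG levels of 63.2 and 275 CPM. Total RNA had more calls than the RIP here, 26 of 33 higher. Of the unfolded protein response, 9 of 18 genes were called higher and 0 lower, including all 3 sensors of the endoplasmic reticulum. Their log2 fold changes were 1.55 for Ern1 (SE 0.168), 1.10 for Eif2ak3 (SE 0.185) and 0.98 for Atf6 (SE 0.154). The cochaperone Dnajb9 rose by 1.95, from 43.8, 43.8, 77.3 and 36.4 CPM to 185, 173, 298 and 147 CPM.

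Of the heat shock list, 2 of 19 genes rose and 2 fell, near the shares over all genes, and the median was 0.19. Without LPS replicate 3, 4 were called higher and the median was 0.36, and without LPS replicate 2 the median was 0.022. Dnajb4 rose by a log2 of 1.41 (SE 0.183) and Hspa4l, an Hsp70 relative, by 1.21 (SE 0.252). Hspe1, the small mitochondrial chaperonin, fell by 0.80 on the log2 scale and Hsf1, the main heat shock transcription factor, by 0.48 (FDR 0.0473). Hsf1 was not called without any one of the 4 LPS+TM7nox libraries or of LPS replicates 1, 3 and 4 (FDR 0.072 to 0.126), nor with scaling to total counts (0.10), no filter on low counts (0.205) or only the 8 libraries compared (0.0788). Hspe1 missed the threshold without LPS+TM7nox replicate 2 (FDR 0.0521) or LPS replicate 4 (0.0514). The block called 7 heat shock genes higher and 4 lower.

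Secreted cytokines parted into a few that rose and more that fell. Of 21 tested, 3 were called higher (Vegfa, Tnf and Osm) and 8 lower, with a median log2 fold change of -0.23. The median rested on single libraries, at -0.70 without LPS+TM7nox replicate 3, -0.56 without replicate 4 and -0.084 without replicate 1. Over all the alternatives it lay between -0.76 and -0.084. Vegfa, the vascular growth factor, stood at 34.8, 21.2, 27.3 and 26.6 CPM in LPS and 94.7, 77.0, 118 and 140 CPM with TM7nox (log2 fold change 1.92, SE 0.272, FDR 0.000244). Tnf, the founding member of its cytokine family, varied widely among treated libraries. It was at 648, 482, 455 and 511 CPM and then 2574, 638, 993 and 1629 CPM, and LPS+TM7nox replicate 2 lay just below LPS replicate 1. Osm, which was named after its values were seen, rose by 1.36 (SE 0.314, FDR 0.00774). For Tnf and Osm the change in total RNA was 0.55 and 0.80 and not called (FDR 0.114 and 0.0995), and for Vegfa it was 1.43 and called.

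Both interleukin-1 mRNAs fell. Il1b was at 466, 641, 604 and 574 CPM in LPS and 83.4, 120, 153 and 101 CPM with TM7nox, and Il1a at 311, 438, 307 and 262 CPM and then 69.0, 92.0, 125 and 99.7 CPM. Neither pair of groups overlapped, and the log2 fold changes were -2.37 (SE 0.290) and -1.82 (SE 0.262). Il33, an alarmin of the same family, had the steepest fall of the cytokines, from 29.0, 66.7, 87.8 and 71.3 CPM to 1.53, 7.52, 11.7 and 8.92 CPM (-3.15, SE 0.438, FDR 0.000208). Il10, which restrains inflammation, fell from 48.5, 29.9, 21.9 and 21.0 CPM to 9.60, 11.2, 8.75 and 7.56 CPM. The other 4 called lower were Il18, Tgfb1, Il27 and Csf3, with log2 fold changes of -1.21 to -0.96. Csf3 was not called without LPS+TM7nox replicate 1 or 2 or LPS replicate 4 (FDR 0.052 to 0.0721), nor Il27 without LPS+TM7nox replicate 1, 2 or 4 or LPS replicate 2, 3 or 4 (0.0663 to 0.107). Il6 (-0.10, SE 0.387, FDR 0.888) was not called, and LPS replicate 3 and LPS+TM7nox replicate 3 were its 2 highest libraries at 123 and 137 CPM.

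Chemokines had the lowest median of the 22 lists, -1.15, with 8 of 15 called lower and 1 higher. That 1 was Cxcl2, which attracts neutrophils. It was at 1076, 1029, 1148 and 1179 CPM in LPS and 5876, 2478, 6904 and 7521 CPM with TM7nox (log2 fold change 2.32, SE 0.294, FDR 9.6e-05). Its total RNA rose by 1.62. Ccl22, which attracts lymphocytes that carry Ccr4, fell most, from 38.1, 87.9, 66.4 and 53.7 CPM to 4.46, 14.5, 9.63 and 7.29 CPM (-2.83, SE 0.326, FDR 4.11e-05). The interferon-induced Cxcl11 fell from 74.1, 81.0, 65.1 and 47.7 CPM to 17.8, 25.8, 20.6 and 11.0 CPM. Cxcl10, induced in the same way, was at 450, 309, 351 and 424 CPM and then at 135, 143, 138 and 128 CPM. The abundant chemokines Ccl3, Ccl4 and Ccl5 had log2 fold changes of 0.45, 0.25 and -0.22 and were not called. Without LPS replicate 3, 5 chemokines were called lower. In total RNA 7 of 16 chemokines were called lower and 1 higher.

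**Figure D2:**
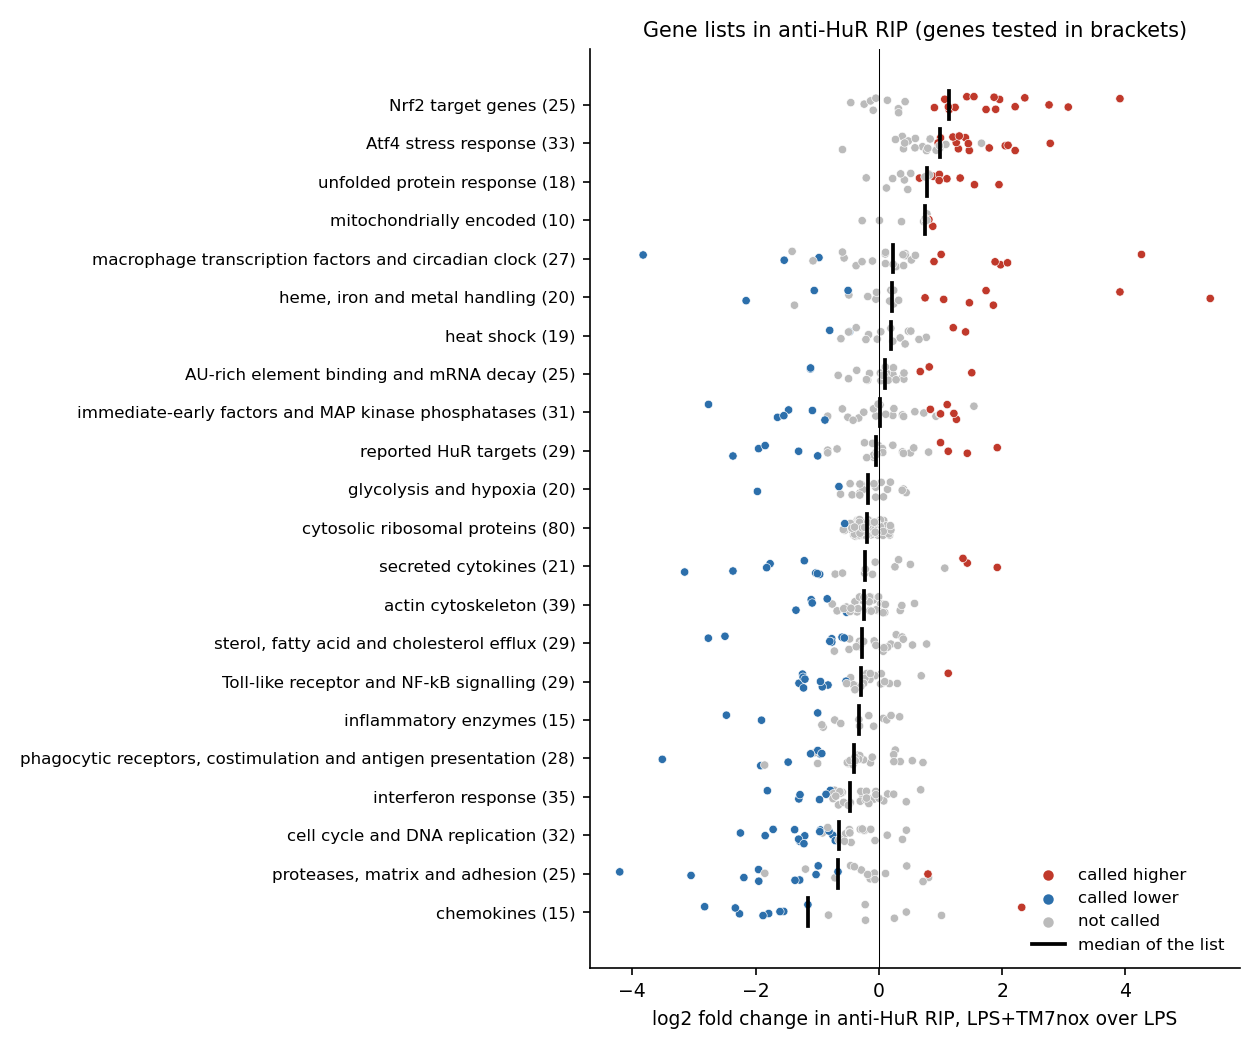
Log2 fold change in RIP, LPS+TM7nox over LPS, for the tested members of 22 gene lists, ordered by list median (black bars). Points are single genes, red where called higher, blue where called lower and grey otherwise. Medians of the Nrf2, Atf4, unfolded protein response and mitochondrially encoded lists lie farthest to the right of 0. Those of chemokines, proteases and cell cycle genes lie farthest to the left, and each of these lists has members on both sides.

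Within Toll-like receptor and NF-kB signalling, 1 of 29 genes was called higher and 9 lower (2 and 11 with the block). The 1 called higher without the block was Tlr4, the receptor of LPS itself. It was at 89.4, 107, 107 and 76.9 CPM in LPS and 235, 235, 226 and 160 CPM with TM7nox (log2 fold change 1.13, SE 0.177, FDR 0.000572). Its total RNA rose by 0.57. Myd88, the adaptor that Toll-like receptors signal through, fell from 87.6, 78.0, 95.3 and 106 CPM to 35.2, 36.7, 50.1 and 38.7 CPM (-1.24, SE 0.169, FDR 0.000182). Tlr1 fell by 1.20 and Tnip3, an inhibitor of NF-kB induced by LPS, by 1.23 on the log2 scale. The NF-kB subunits Rela, Relb, Rel, Nfkb1 and Nfkb2 had log2 fold changes of -0.37 to 0.05, and none was called. Among 35 interferon response genes, 0 rose and 6 fell (1 and 13 with the block). Without LPS+TM7nox replicate 1 or LPS replicate 1, 3 or 4, 4 were called lower, and in replicates 1 and 2 alone 2. Irf7 lost its call without LPS+TM7nox replicate 1, 2, 3 or 4 or LPS replicate 1, 3 or 4 (FDR 0.0534 to 0.14). Irgm1 lost its call without LPS+TM7nox replicate 1, 2 or 4 or LPS replicate 1, 3 or 4 (0.0621 to 0.0861). Socs3, a feedback inhibitor of cytokine signalling, fell from 654, 638, 746 and 875 CPM to 167, 227, 241 and 224 CPM (-1.81, SE 0.248, FDR 0.000183). Ifit2 and Ifit3, antiviral RNA-binding proteins, fell by 1.30 and 1.28. Ifnb1, the gene of interferon beta, had a log2 fold change of -0.59 (FDR 0.362), but was called with the block (-0.85, FDR 0.00524) and without LPS+TM7nox replicate 3 (-1.33, FDR 0.0172).

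The list of inflammatory enzymes and effectors had 3 of 15 called lower and 0 higher, with 7 lower with the block and 5 without LPS+TM7nox replicate 3. Saa3, an acute-phase protein, fell from 43.9, 41.9, 31.6 and 73.2 CPM to 11.5, 9.08, 6.79 and 8.01 CPM (log2 fold change -2.47, SE 0.336, FDR 0.00018). Lcn2, an iron-scavenging lipocalin, fell by 1.90 on the log2 scale. Nos2, inducible nitric oxide synthase, fell from 170, 156, 259 and 269 CPM to 73.0, 99.1, 153 and 118 CPM (-0.99, SE 0.261, FDR 0.0166), and just missed the threshold without LPS+TM7nox replicate 2 (FDR 0.0509). Ptgs2, which encodes cyclooxygenase-2 and has 6 copies of TATTTAT, was at 1594, 2306, 2470 and 1971 CPM and then 1851, 1570, 2724 and 1970 CPM. Its groups overlapped, and the log2 fold change was -0.08 (SE 0.309, FDR 0.886).

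Of 25 regulators of AU-rich mRNAs, 3 rose and 2 fell, shares near the 8.64% and 7.61% of all genes, and 5 and 4 were called with the block. Without LPS+TM7nox replicate 2 or 4 or LPS replicate 4, 1 was called higher and 1 lower. Elavl1 was recovered strongly in all 8 libraries, at 3830, 4700, 3349 and 2679 CPM in LPS and 4070, 5316, 3105 and 3123 CPM with TM7nox. Its groups overlapped (log2 fold change 0.06, SE 0.242, FDR 0.906), and the IgG libraries held 90.8 and 77.5 CPM. Zc3h12c, a member of the regnase family of RNases, rose from 238, 333, 205 and 167 CPM to 695, 851, 572 and 647 CPM (1.51, SE 0.224, FDR 0.00035). Its relative Zc3h12a (regnase-1), which degrades cytokine mRNAs, fell from 131, 116, 134 and 129 CPM to 64.1, 51.7, 71.7 and 56.7 CPM (-1.11, SE 0.149, FDR 0.00016). Rc3h1, the RNA-binding protein roquin-1, rose by 0.82 and Dcp2, the decapping enzyme, by 0.67, the latter named after its values were seen. Both calls were lost without LPS+TM7nox replicate 2 or 4 or LPS replicate 1 or 4 (FDR 0.0551 to 0.0596 for Rc3h1 and 0.0576 to 0.0808 for Dcp2), and that of Dcp2 without LPS replicate 3 (0.0603). Zfp36l1, which promotes decay of AU-rich mRNAs, fell by 1.11, and was not called without LPS+TM7nox replicate 1, 2 or 4 or LPS replicate 3 or 4 (FDR 0.0501 to 0.0831). Zfp36 had a log2 fold change of -0.49 (FDR 0.152).

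A list of 29 tested mRNAs reported as HuR targets had no common direction, with 4 called higher, 5 lower and a median of -0.05 (-0.098 to 0.046 over the alternatives). The 4 were Vegfa, Tnf, Tlr4 and Jun, and the 5 were Il1b, Mmp9, Ccnd1, Ccna2 and Nos2. Ccna2 was not called without LPS+TM7nox replicate 3 or 4 or LPS replicate 1 or 2 (FDR 0.0698 to 0.11). With the block, 7 were called higher and 8 lower. In total RNA 3 were called higher and 9 lower, with a median of -0.28. Actb, the most abundant RNA of the precipitates, was at 279623, 268583, 302020 and 187009 CPM in LPS and 173833, 186283, 166506 and 142726 CPM with TM7nox. These groups did not overlap, yet its log2 fold change of -0.68 (SE 0.263) had an FDR of 0.0899. It was called with the replicate block (0.0326), by DESeq2 (0.0259) and with scaling to total counts (0.0399). As a share of all counts it was 15.7% ± 2.51 in LPS and 9.82% ± 1.51 with TM7nox (SD, n = 4 each). An exact two-sided permutation test gave p = 0.0286 (adjusted 0.114 over 4 shares), the smallest that 4 libraries against 4 can give.

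**Figure D3:**
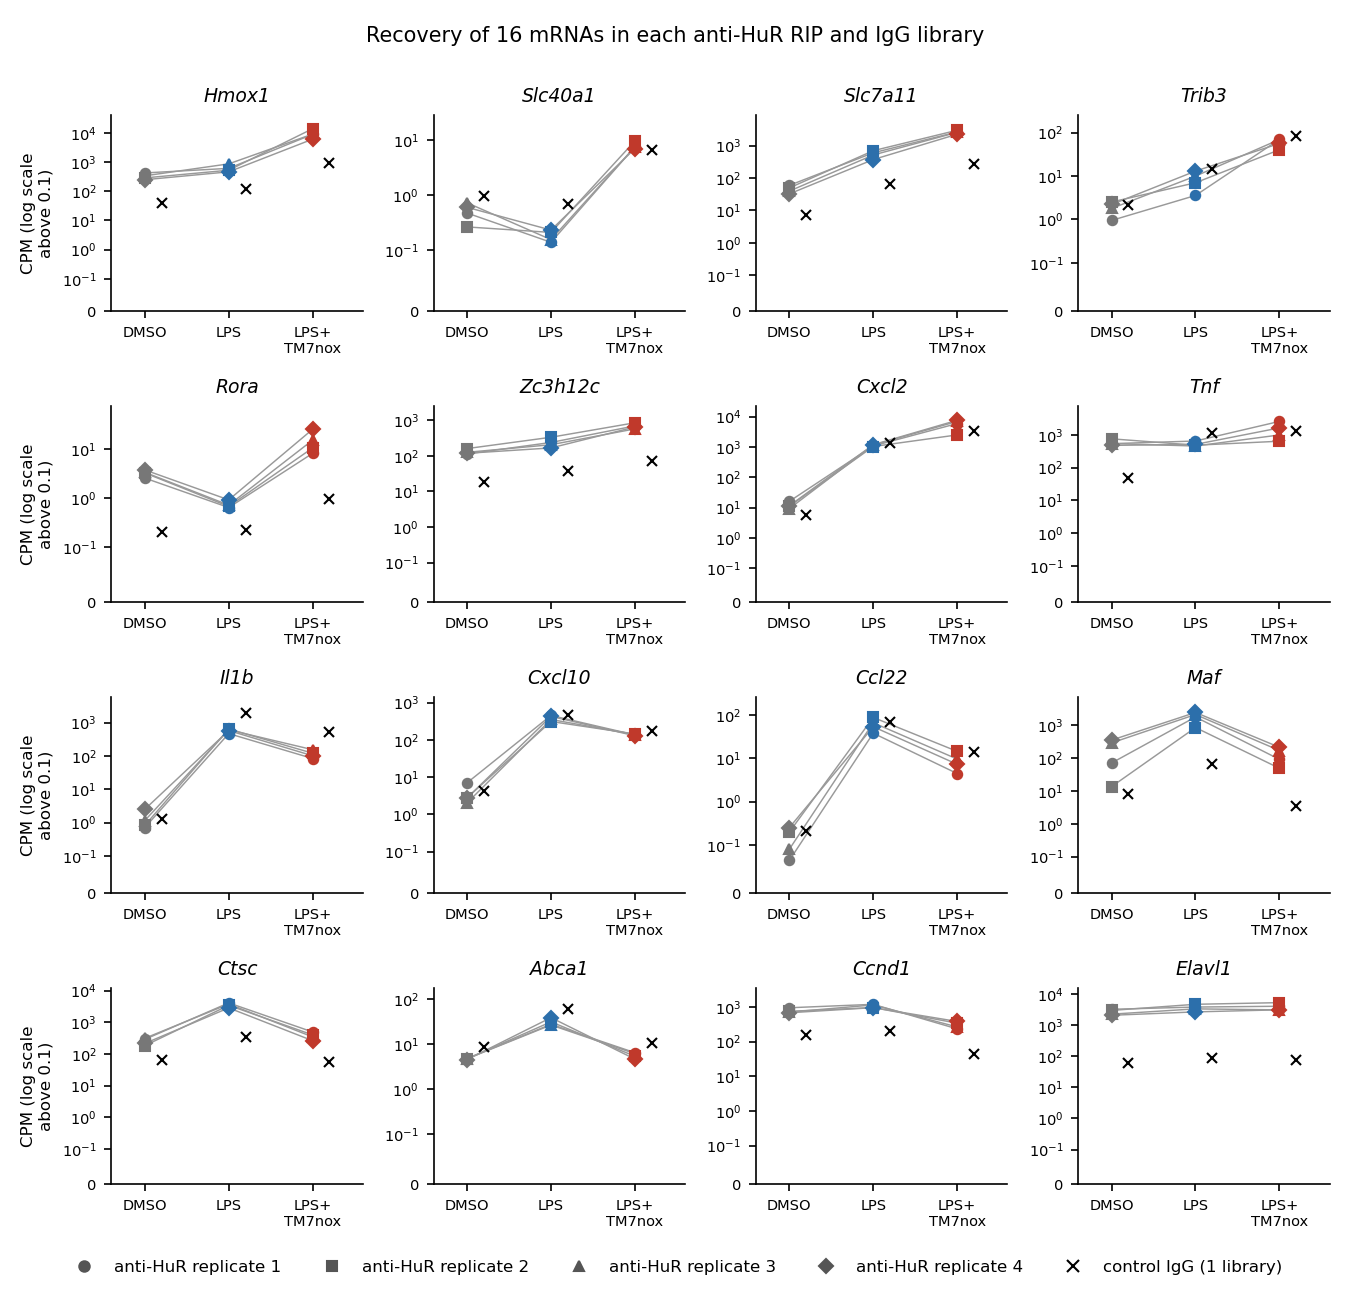
CPM (log scale above 0.1) of 16 mRNAs in the anti-HuR libraries of DMSO (grey), LPS (blue) and LPS+TM7nox (red), with same-numbered libraries joined by lines and the single IgG library of each treatment as a cross. Hmox1, Slc40a1, Slc7a11, Trib3, Rora, Zc3h12c, Cxcl2 and Tnf lie higher with TM7nox than with LPS in all 4 pairs, Il1b, Cxcl10, Ccl22, Maf, Ctsc, Abca1 and Ccnd1 lie lower, and Elavl1 overlaps.

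Transcription factors of macrophages and of the circadian clock moved in both directions, with 6 of 27 called higher, 3 lower and a median of 0.23 (0.20 to 0.36 over the alternatives). Rora, a nuclear receptor that acts in the clock, was at 0.648, 0.683, 0.725 and 0.927 CPM in LPS and 8.20, 10.6, 15.2 and 25.3 CPM with TM7nox. Its DMSO libraries averaged 3.25 CPM, so the LPS level lay below and the TM7nox level above that of unstimulated cells. The clock repressors Bhlhe41, Nr1d2 and Bhlhe40 rose by 2.09, 1.97 and 1.89 (SE 0.346, 0.235 and 0.284). Bhlhe41 went from 38.1, 58.1, 29.3 and 27.9 CPM to 138, 239, 91.2 and 202 CPM. Maf, a leucine zipper factor of macrophages, fell from 1776, 846, 2109 and 2436 CPM to 90.9, 48.8, 169 and 212 CPM. Spi1 (PU.1), the master factor of the lineage, fell by 0.97 on the log2 scale and was named after its values were seen. With the block the list had 8 higher and 6 lower.

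Immediate-early factors and MAP kinase phosphatases, the fast feedback genes of LPS signalling, were split too, with 5 of 31 called higher and 6 lower, and 9 of each with the block. Dusp2, a phosphatase of MAP kinases, fell from 33.8, 20.0, 27.9 and 31.3 CPM to 3.48, 2.85, 5.99 and 4.86 CPM (log2 fold change -2.76, SE 0.286, FDR 1.55e-05). Dusp6 fell by 1.46 and Ier2 by 1.54. Dusp4, of the same family, moved against them, from 108, 94.8, 105 and 107 CPM to 246, 257, 273 and 250 CPM (1.26, SE 0.224, FDR 0.00141).

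Of 32 cell cycle genes, 13 were called lower and 0 higher, with a median of -0.64, and the block called 22 lower. The D-type cyclins, which drive entry into the cycle, led this list. Ccnd1 fell from 1189, 959, 1144 and 955 CPM to 233, 340, 265 and 381 CPM (log2 fold change -1.84, SE 0.206, FDR 2.84e-05). Ccnd3 fell from 49.0, 52.5, 46.0 and 58.3 CPM to 11.0, 12.9, 10.7 and 10.3 CPM (-2.25, SE 0.163, FDR 5.94e-07). Ccne1, of the next step, fell by 1.72 and Mcm7, of the replicative helicase, by 0.96. Without LPS+TM7nox replicate 4 or LPS replicate 1, 8 were called lower. In total RNA 14 of 32 were called lower and 0 higher.

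Genes of proteases, matrix and adhesion had 10 of 25 called lower and 1 higher (Adamts1, a metalloprotease, log2 fold change 0.80, FDR 0.0402). Adamts1 was not called without LPS+TM7nox replicate 3 or 4 or LPS replicate 1, 2 or 4, and the block called 14 lower and 3 higher. Thbs1, the matrix glycoprotein thrombospondin-1, was at 28.7, 29.5, 9.27 and 9.62 CPM in LPS and 1.57, 1.08, 0.919 and 0.630 CPM with TM7nox. Timp1, an inhibitor of metalloproteinases, fell from 5.60, 5.73, 4.82 and 6.32 CPM to 0.679, 0.881, 0.679 and 0.540 CPM (-3.05, SE 0.376, FDR 7.41e-05). F3, tissue factor, fell by 2.19 and Itgam, the integrin CD11b, by 0.98. Of the phagocytic, costimulatory and antigen presentation genes, 7 of 28 were called lower and 0 higher, and 14 lower and 2 higher with the block. Marchf1, a ubiquitin ligase of antigen-presenting molecules, fell from 14.3, 20.4, 13.2 and 8.52 CPM to 0.679, 2.64, 1.20 and 0.630 CPM. Fcgr1, the high-affinity IgG receptor, fell by 1.92, from 284, 212, 244 and 205 CPM to 70.8, 71.0, 68.0 and 49.2 CPM. Cd80 and Cd40, which costimulate T cells, fell by 0.99 and 0.95.

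Lipid genes had 7 of 29 called lower and 0 higher (10 and 2 with the block, and 4 lower without LPS+TM7nox replicate 2 or 4 or LPS replicate 1, 3 or 4). Abca1, which exports cholesterol, fell from 27.8, 31.5, 26.9 and 39.2 CPM to 6.50, 5.42, 6.19 and 4.68 CPM (log2 fold change -2.50, SE 0.174, FDR 5.94e-07), close to its DMSO mean of 4.72 CPM. Lipg, a lipase, fell by 2.77. Of 20 glycolysis and hypoxia genes, 2 were called lower and 0 higher, shares near those of all genes (7.61% lower), and 5 and 2 with the block. Pfkfb3, which makes the activator of phosphofructokinase, fell from 257, 432, 359 and 291 CPM to 56.2, 140, 80.6 and 75.6 CPM (-1.97, SE 0.270, FDR 0.000183). Ldha fell by 0.65 (FDR 0.0268) and was not called without LPS+TM7nox replicate 2 or 4 or LPS replicate 1, 3 or 4 (FDR 0.0534 to 0.0812). Of 39 actin cytoskeleton genes 5 were called lower and 0 higher, with 12 and 1 with the block and 3 lower, a share near that of all genes, without LPS+TM7nox replicate 2 or 4. Zyx, a focal adhesion protein, led with -1.34 (SE 0.239). Actg1, the other cytoplasmic actin, fell by 1.08 (FDR 0.017), a call that was lost without LPS+TM7nox replicate 2 (FDR 0.0581) or 4 (0.0534).

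Ribosomal protein mRNAs, listed by symbol prefix, stayed close to 0 in the RIP, with a range of -0.58 to 0.20. Of 80, 1 was called lower (Rpl7l1, an Rpl7-like gene taken in by its symbol, log2 fold change -0.55). Their median was -0.19, and lay between -0.34 and 0.09 over the alternative settings. Rpl7l1 was not called without LPS+TM7nox replicate 2 or 4 or LPS replicate 1, 3 or 4 (FDR 0.0505 to 0.064), nor with no filter on low counts (0.0968). The block called 4 lower. Of the 10 mitochondrially encoded RNAs tested, mt-Nd2 and mt-Nd4, subunits of complex I, were called higher, by 0.87 and 0.81, and 7 with the block. The groups of both overlapped. On IgG beads in LPS and LPS+TM7nox, mt-Nd2 was at 450 and 892 CPM and mt-Nd4 at 461 and 842 CPM. These levels lay above the RIP means (195 and 369 CPM, and 441 and 800 CPM). In total RNA their log2 fold changes of 0.22 and 0.083 were not called. The mitochondrially encoded share of the IgG libraries was 5.57% and 5.31%. Without LPS+TM7nox replicate 1, which had the highest mitochondrial share of its group and the most of both RNAs (530 and 1101 CPM), their FDRs were 0.0785 and 0.111. LPS replicate 4, with the highest share of all 8, held the least of both in its group (147 and 292 CPM). Leaving out LPS+TM7nox replicate 2 or LPS replicate 3 or 4 also ended both calls (FDR 0.05 to 0.109), and leaving out LPS+TM7nox replicate 3 or LPS replicate 1 ended that of mt-Nd4 (0.0624 and 0.0663), as did a fit of only the 8 libraries (0.0683).

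Outside the lists, Aqp9, a channel for water and glycerol, rose from 0.463, 0.841, 0.880 and 0.579 CPM to 14.2, 5.29, 14.7 and 17.1 CPM (log2 fold change 4.17, SE 0.360, FDR 2.75e-06). Ampd3, an AMP deaminase, rose from 3.89, 3.42, 6.16 and 4.06 CPM to 44.2, 26.2, 48.8 and 34.8 CPM (3.09, SE 0.222, FDR 5.94e-07). The IgG libraries of LPS and LPS+TM7nox held 7.51 and 74.5 CPM of Ampd3, above its RIP means of 4.38 and 38.5 CPM. For Aqp9 they held 0.416 and 9.55 CPM, below its RIP means of 0.691 and 12.8 CPM. Tent5c, a poly(A) polymerase, rose by 3.15, the glycine transporter Slc6a9 by 3.45, Glrp1 by 2.98 and the zinc finger gene Zfp874b by 2.83. Stc2, a secreted glycoprotein, rose by 2.74 (SE 0.579), while its change in total RNA, 2.00, was not called (FDR 0.089). Nedd4l, a ubiquitin ligase, stood at 8.28, 6.51, 40.7 and 10.9 CPM with TM7nox, so replicate 3 weighs on its rise of 3.56, which was 2.62 without that library, and the IgG libraries held more of it (27.7 CPM in LPS and 476 CPM in LPS+TM7nox). Ctsc, the lysosomal protease cathepsin C, fell from 4094, 3434, 3774 and 2850 CPM to 494, 399, 345 and 262 CPM (-3.29, SE 0.245, FDR 7.63e-07). The adenosine receptor Adora2b, the receptor chain Il4ra, the semaphorin Sema4c and Ms4a4b fell by 2.57 to 2.71 on the log2 scale. Whether counting used the strand is not given in the sources used here, and of 97 genes, those named by rule and Gm5526 described below, 63 are overlapped by another annotated gene on the other strand.

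The change in RIP was set beside the change in total RNA to see how far the 2 went together. In total RNA, 1704 of 12369 genes were called (13.8%), 912 higher (7.37%) and 792 lower (6.4%). Of the 1176 RNAs higher in RIP, 557 (47.4%) were called higher in total RNA, and these were 61.1% of the RNA calls. Of the 1036 lower in RIP, 453 (43.7%) were called lower in total RNA, 57.2% of its calls. No gene was called in opposite directions, among 2090 called in RIP and tested in RNA. The sign was shared by 1066 of 1098 higher and 976 of 992 lower genes. Across 11782 genes, which are not independent replicates, the fold changes had a Pearson r of 0.763 and a Spearman rho of 0.684. With the replicate block 3091 genes were called in total RNA, 1526 higher and 1565 lower. Lower calls there numbered 519 without LPS+TM7nox replicate 3 of total RNA and 503 without its replicate 4.

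**Figure D4:**
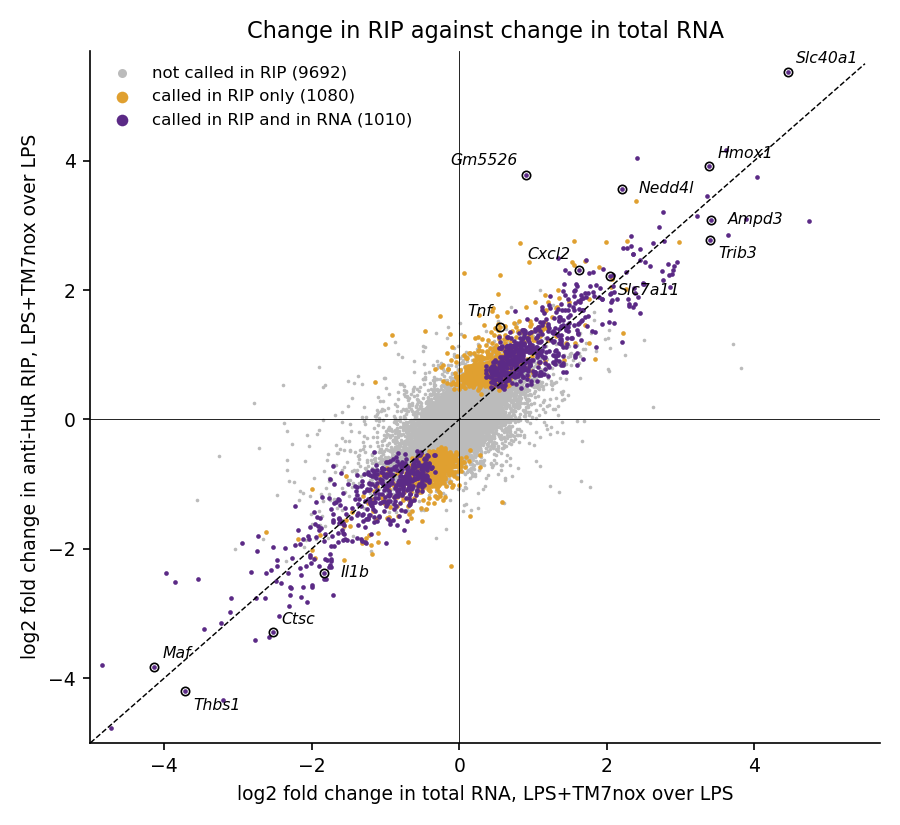
Log2 fold change in total RNA (horizontal) against that in RIP (vertical), LPS+TM7nox over LPS, for 11782 genes tested in both. The 1010 genes called in both are purple, the 1080 called in RIP only orange and the rest grey, and the dashed line marks equal change. Called genes lie mostly at the upper right and lower left, and Gm5526 lies farthest above the line among the labelled genes.

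A test of the difference between the changes in RIP and in total RNA called 1 of 14311 genes (0.00699%), and 771 had an unadjusted p under 0.05. By alternative it called 0 (replicates 1 and 2 alone, and replicates 3 and 4 alone) to 5 (no filter on low counts), with 3 by DESeq2 and 2 with the block. The called gene was Gm5526, a processed pseudogene (chr1:45896492-45896914, minus strand), named after its values were seen. It was at 0.879, 0.736, 1.45 and 0.811 CPM in LPS and 11.6, 14.2, 13.9 and 15.2 CPM with TM7nox in RIP. The log2 fold change was 3.77 in RIP and 0.90 in total RNA, a difference of 2.89 (SE 0.369, FDR 0.00047). It is overlapped on the same strand by the gene ENSMUSG00000123149 and lies near Slc40a1 (chr1:45947211-45965683) on the same chromosome and strand. Separately, reads of pseudogenes can be shared with their parent genes, and the parent of Gm5526 was not looked up. Whether position or shared reads had a part in the difference was not tested. For Tnf, the difference was 0.89 (FDR 0.87), for Cxcl2 0.71 (0.87) and for Rora 1.51 (0.87), none of which passed.

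Recovery on IgG beads was compared as a description, since each treatment has 1 library. Of the 1019 RNAs called higher with at least 10 counts in both IgG libraries, 910 (89.3%) were also higher in the IgG library of LPS+TM7nox. For the lower RNAs, 895 of 929 (96.3%) were lower there. Over all 10498 genes with such counts, 44.1% were higher. In LPS+TM7nox, 768 of the 1019 higher RNAs (75.4%) had a RIP mean above the IgG level, as did 235 of the 929 lower RNAs (25.3%) and 43.1% of all 10498 genes. In LPS these shares were 68.7%, 27.3% and 41.4%. The RIP mean was at least 2 times the IgG level for 56.8% of the higher RNAs, 8.72% of the lower RNAs and 25.7% of all in LPS+TM7nox, and for 46.5%, 7.32% and 22.1% in LPS. The RIP values chose these RNAs, so the shares are a description. Il1b, for example, was at 1966 CPM on IgG in LPS, above all 4 anti-HuR libraries, and Tnf at 1147 CPM, also above all 4. Maf (64.4 CPM on IgG), Ctsc (351) and Ccnd1 (205) were far above IgG in the anti-HuR libraries of LPS.

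The 3′ UTRs of the called RNAs differed by direction in a way that the call did not use. Those of the 1041 coding RNAs called higher had a median length of 2613 bases and 30.4% U. The 952 called lower had 1470 bases and 27% U, and all 10789 coding genes tested had 1905 bases and 28.7% U. A run of 7 U (TTTTTTT) was present in 77.2% of the higher, 38.4% of the lower and 54.1% of all UTRs. The motif TTTATTT was present in 70.8%, 38.4% and 51.2%, TATTTAT in 53.6%, 27.6% and 36.8%, and the shorter ATTTA, which lies inside TATTTAT, in 91.2%, 71.8% and 79.3%. Motifs were searched on the sense strand, and longer UTRs hold more of any motif. Within UTRs of at least 1000 and under 2000 bases, a run of 7 U was present in 66.8% of the higher, 34.4% of the lower and 47.9% of all. From 2000 to under 4000 bases these shares were 85.6%, 62.1% and 70.4%, from 4000 bases 92.4%, 79.7% and 87.7%, and under 1000 bases 34.5%, 14.2% and 21.0%. That shortest class held the most lower calls (351), and there the lower RNAs did not lie below all genes for ATTTA (50.7% against 48.0%) or TATTTAT (15.4% against 14.5%). The coding regions and genes differed in length as well, with a median gene span of 39.5 kb for the higher, 16.2 kb for the lower and 25.9 kb for all.

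The same features were listed for the calls in total RNA, and the difference between the assays was not tested. The 880 coding genes called higher there had a median of 29.0% U and the 759 called lower 28.8%, and runs of 7 U were present in 59.1% and 54.4%. Their UTRs had a median of 2210.5 bases when higher and 1835 when lower, against 1897 over all, and TTTATTT was in 57.8% and 51.0%. To see whether the pattern was present in each replicate, 9819 coding genes with a mean of at least 1 CPM were put in quartiles by the U share of the UTR. The same-numbered log2 ratio of LPS+TM7nox over LPS in RIP had a median in the quartile poorest in U of -0.14, -0.07, -0.11 and -0.42 for replicates 1 to 4. In the richest quartile it was 0.17, 0.20, 0.18 and 0.23. The quartiles were ordered by U in all 4 replicates. In total RNA the difference between the outer quartiles was -0.03, 0.01, 0.08 and 0.01, against 0.31, 0.27, 0.29 and 0.65 in RIP. It was 0.11 between the IgG libraries. Calls followed the same order: 124 genes of the poorest quartile rose and 371 fell, against 370 and 127 of the richest.

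**Figure D5:**
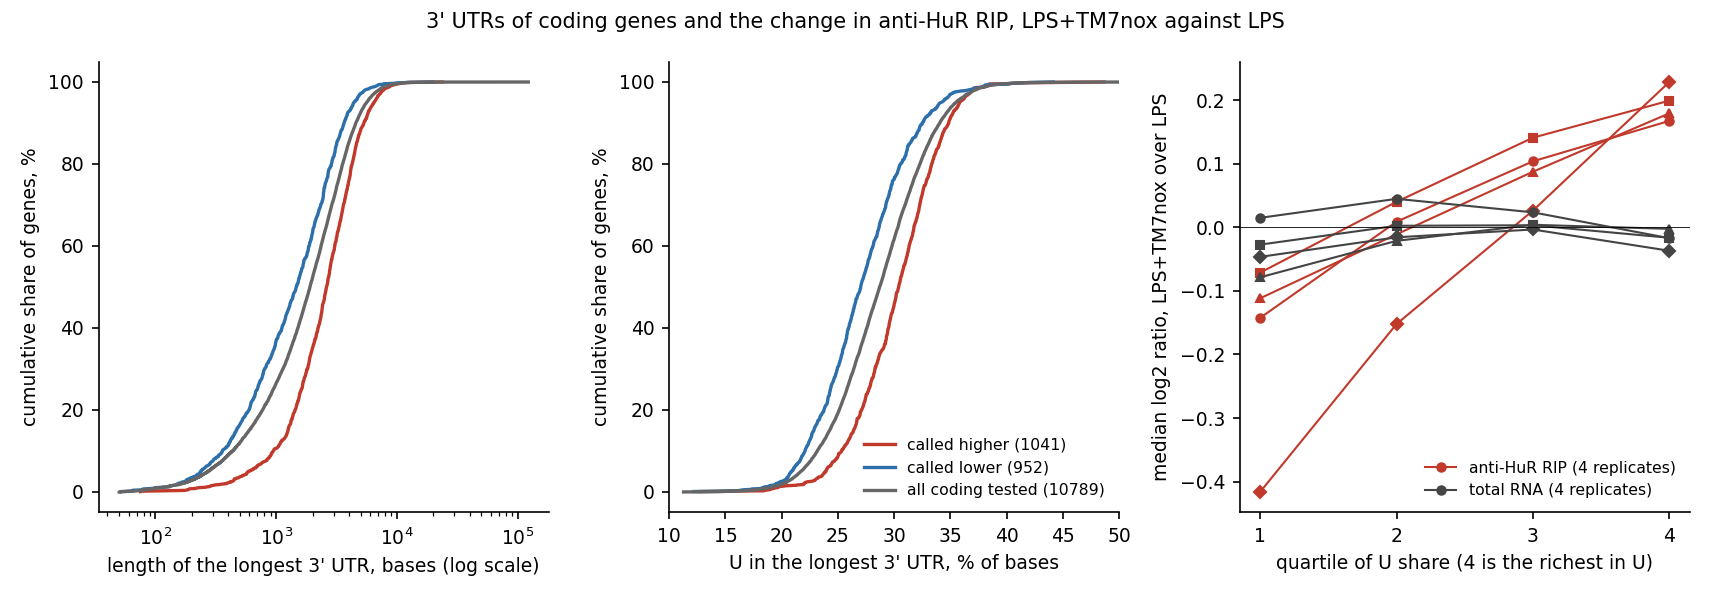
Left and middle, cumulative share of coding genes by the length (log scale) and by the U share of the longest 3′ UTR, for 1041 genes called higher (red), 952 called lower (blue) and all 10789 tested (grey). Right, median log2 ratio of LPS+TM7nox over LPS in quartiles of U share, 1 line per replicate, in RIP (red) and total RNA (dark grey). Red lines climb from quartile 1 to 4 in each replicate, and the total RNA lines stay within 0.08 of 0.

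The same measure within a treatment shows how strongly each anti-HuR library held U-rich mRNAs over its total RNA. The median log2 ratio of RIP over total RNA in the richest quartile, minus that in the poorest, was 1.20, 1.29, 1.13 and 0.61 in LPS replicates 1 to 4. With TM7nox it was 1.62, 1.62, 1.42 and 1.35, above all LPS libraries, and in DMSO it was 1.25, 1.38, 1.51 and 1.21. The value of DMSO replicate 1 rests on a shallow total RNA library of 2728534 counts. LPS replicate 4, which had the least contrast between the quartiles, also had the largest mitochondrial share, and the part of this in the result was not tested. The other 3 LPS libraries were at 1.13 to 1.29.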

How the data were processed

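Mouse RAW264.7 RNA from anti-HuR RIP, IgG RIP and total RNA was sequenced with a stranded SMART-Seq kit, per the labels' protocols. The authors deposited whole-number read counts per Ensembl gene for 27 libraries. Per the submitters' processing notes, FastQC 0.11.9, STAR, HTSeq, DESeq2 and the build GRCm39 were used, and no source used here gives the strand setting or annotation release. Genes were tested with edgeR 4.0.16 (R 4.3.3; quasi-likelihood F test, TMM scaling, filterByExpr with a minimum count of 10, group as the only term, Benjamini-Hochberg adjustment over all genes, called at FDR under 0.05) on 12 RIP libraries (DMSO, LPS and LPS+TM7nox), on 12 total RNA libraries, and on all 24 for the difference between assays. The SE is the absolute log2 fold change divided by the square root of F. Same-numbered LPS and LPS+TM7nox libraries deviated together (correlations 0.386 to 0.543 in RIP and 0.372 to 0.449 in total RNA, against -0.381 to 0.366 between different numbers), so the replicate number was also used as a block. CPM used TMM factors over the 27 libraries, so a CPM is not a share of the deposited counts. Shares were compared with an exact permutation test. Alternatives were DESeq2 1.42.0, other scalings and filters, replicates 1 and 2 or 3 and 4 alone, and leaving out each replicate. Named genes were the 12 largest called changes in each direction with a mean of at least 5 CPM, no overlap between groups and no predicted symbol, up to 4 called genes per list with the smallest p, a fixed panel, and called differences between assays under the same conditions (none passed). Other genes were named after their values were seen, to complete a small count or as an example. The members, lists and tests were chosen with earlier results of these data known. The ribosomal list was built by symbol prefix, so it takes in like-named genes such as Rpl7l1. It leaves out Rps6k and Rps19bp genes, and 7 symbols of the lists were matched by GENCODE name. UTRs come from GENCODE M39, and 3′ UTRs under 50 bases were left out. The tests were checked on simulated counts. A result of 1 list member is not reported here.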

Additional observations from a re-analysis of the deposited data

Results flagged for a closer look

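In groups of 4, a library was marked where its gap to the nearest other, divided by the range, passed Dixon's critical value. Of 204 groups 8 were marked, and chance marks about 1 in 20. Of the anti-HuR LPS+TM7nox libraries, replicate 3 stood apart for Nedd4l (40.7 CPM, with 6.51 to 10.9 CPM in the others), Slc3a2 (284 CPM) and Cd80 (112 CPM). Replicate 4 stood apart for Tlr4 (160 CPM, with 226 to 235 CPM in the others) and Fcgr1 (49.2 CPM). Replicate 2 was low for Slc6a9 (8.13 CPM) and replicate 1 high for Itgam (7.90 CPM). The mitochondrially encoded share was 1.86% in LPS replicate 4.

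Nedd4l stood at 476 CPM on IgG beads in LPS+TM7nox and at 27.7 CPM in LPS, above the anti-HuR library of the same treatment in both cases. Both IgG libraries are of replicate 3, the number of the high anti-HuR library. The log2 change of the pseudogene Gm5526 in RIP exceeded that in total RNA by 2.89 (edgeR, FDR 0.00047).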

How the results depend on the processing

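With the replicate block, calls in RIP were 4577 (2256 higher, 2321 lower) and in total RNA 3091 (1526 higher, 1565 lower). Replicates 1 and 2 alone gave 789 (466 and 323) in RIP and 168 (98 and 70) in RNA. Replicates 3 and 4 alone gave 1070 (593 and 477) and 3489 (1797 and 1692). Leaving out 1 library at a time gave 1495 to 2210 in RIP (836 to 1215 higher, 659 to 1013 lower) and 1199 to 1605 in RNA (669 to 821 and 503 to 784). Calls in RIP were 1892 with scaling to total counts, where 57.3% were higher against 53.2%, and 2843 with DESeq2. The difference between assays gave 1 call with DESeq2's size factors in edgeR, 2 with total counts, 3 with DESeq2, 5 with no filter, 2 with a minimum count of 50, 2 with the block, and 0 in replicates 1 and 2 or 3 and 4 alone. The Actb share differed by -7.03 to -5.05 percentage points without 1 library.

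Of 1746 values of named genes under alternatives, 1655 kept direction and call, 76 lost the call, 6 gained it and 9 reversed. Those reversed were not called: Elavl1 (-0.11 without LPS+TM7nox replicate 2, -0.058 without LPS replicate 4, in a range of -0.11 to 0.22), Ptgs2 (0.069 in replicates 3 and 4, 0.038 and 0.0016 without LPS+TM7nox replicate 2 or LPS replicate 3, in a range of -0.24 to 0.069) and Il6 (0.049 in replicates 3 and 4, 0.12 and 0.076 without LPS+TM7nox replicate 1 or 2, 0.31 without LPS replicate 3, in a range of -0.70 to 0.31). The cause was not tested. Tnf lost its call in replicates 1 and 2 (FDR 0.135), and Nos2 in 3 and 4 (0.0618).

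Each IgG treatment has 1 library, so IgG values have no error, and genes with few counts have the widest errors. UTR shares by longest coding transcript differed in level but kept their order: a run of 7 U was in 73.6% of the higher, 32.1% of the lower and 48.3% of all UTRs. Length classes, U quartiles and list counts under alternatives were added after the data were seen.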
